A study of Homo sapiens with 6 samples.

Results

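The endoplasmic reticulum (ER) unfolded protein response was described by 33 genes for ER chaperones, folding enzymes, ER-associated degradation (ERAD) and the stress sensors. They were picked by symbol from the 37871 genes of a count table and by no rule on their values. Earlier results of these data were known when they were chosen. The measurements are RNA sequencing counts from T24, an established human bladder carcinoma cell line, after lipopolysaccharide (LPS) plus nigericin in 3 libraries and after vehicle in 3 libraries. LPS, from the outer membrane of Gram-negative bacteria, acts through TLR4, and nigericin lets potassium leave the cell, which triggers NLRP3. By its title the series asks about caspase-1 of epithelial origin and inflammation dominated by neutrophils. Both groups were grown in high-glucose DMEM with antibiotics, neither agent has a group of its own, and the sources used here give no dose or time. The labels do not speak of separate cultures, so the spread behind the p-values may be technical, and whether both groups were prepared together is not stated.

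In the unfolded protein response, misfolded protein in the ER lumen draws the chaperone BiP, the product of HSPA5, away from 3 sensors in the ER membrane. IRE1, encoded by ERN1, splices XBP1 mRNA into the form that encodes an active transcription factor, ATF6 is cut in the Golgi to release another, and PERK phosphorylates eIF2α, which slows translation and favours ATF4. XBP1 and ATF6 raise genes for folding enzymes and for ERAD, the system that pulls misfolded proteins back into the cytosol for the proteasome. The counts here are summed per gene, so the spliced and unspliced forms of XBP1 mRNA, the cleavage of ATF6 and the phosphorylation of PERK or eIF2α were not measured.

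The promoters of many of these genes carry the ER stress response element, ERSE, where NF-Y binds the CCAAT end and ATF6 or XBP1 the CCACG end, and they are shown because they are the known DNA readout of 2 of the 3 sensors. Both strands of a 300-base window (250 bases before to 50 after each annotated start, RefSeq, GRCh38.p14) were searched for exact ERSE, which is CCAAT, 9 bases of any kind and CCACG, and ERSE-II, which is ATTGG, 1 base of any kind and CCACG. Of 33 genes, 30 had a window, and PDIA3, DERL1 and DERL3 had none in the table. ERSE was found in 8 of the 30 genes, HSPA5, HSP90B1, CRELD2, CALR, CANX, PDIA6, ERO1B and XBP1, against 27 of 34943 promoter windows of all genes (0.0773%). ERSE-II was found in 3, HYOU1, SDF2L1 and HERPUD1, against 19 of 34943 (0.0544%). These counts set genes, which may have several windows, against single windows, and the windows of the 30 genes are among the 34943. The 250 bases before the start of the 2 genes with an element and the largest rises and of the one with the largest fall follow, 5′ to 3′ on the gene's strand, with the element in capitals.
HSPA5 (chr9:125241344-125241593, minus strand): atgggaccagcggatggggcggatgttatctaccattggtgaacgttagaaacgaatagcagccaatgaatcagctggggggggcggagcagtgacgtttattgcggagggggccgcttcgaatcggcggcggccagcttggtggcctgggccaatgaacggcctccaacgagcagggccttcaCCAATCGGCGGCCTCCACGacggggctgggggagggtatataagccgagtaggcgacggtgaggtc
HERPUD1 (chr16:56931892-56932141, plus strand): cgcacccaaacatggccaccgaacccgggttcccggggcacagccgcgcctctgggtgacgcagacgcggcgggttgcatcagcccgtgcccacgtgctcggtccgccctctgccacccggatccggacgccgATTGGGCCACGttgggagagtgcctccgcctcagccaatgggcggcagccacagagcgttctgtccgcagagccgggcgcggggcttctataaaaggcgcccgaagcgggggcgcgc
SDF2L1 (chr22:21642052-21642301, plus strand): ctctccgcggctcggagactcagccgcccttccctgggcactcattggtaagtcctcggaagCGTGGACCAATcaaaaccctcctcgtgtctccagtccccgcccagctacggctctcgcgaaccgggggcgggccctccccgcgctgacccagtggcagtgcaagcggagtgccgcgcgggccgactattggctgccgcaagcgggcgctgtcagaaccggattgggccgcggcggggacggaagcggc
The 29 bases around each element of the other 8 genes follow in the same way, and an element on the opposite strand reads as CGTGG to ATTGG in ERSE or CGTGG to CCAAT in ERSE-II.
HSP90B1 (ERSE, chr12:103930211-103930239, plus strand): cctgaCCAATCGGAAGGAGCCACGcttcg
HSP90B1 (ERSE, chr12:103930316-103930344, plus strand): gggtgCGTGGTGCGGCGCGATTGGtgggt
HYOU1 (ERSE-II, chr11:119057371-119057399, minus strand): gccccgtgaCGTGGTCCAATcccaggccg
HYOU1 (ERSE-II, chr11:119057265-119057293, minus strand): ggcctgggaCGTGGTCCAATgagtacgcg
CRELD2 (ERSE, chr22:49918549-49918577, plus strand): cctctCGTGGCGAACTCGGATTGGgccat
CALR (ERSE, chr19:12938379-12938407, plus strand): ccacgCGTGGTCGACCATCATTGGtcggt
CANX (ERSE, chr5:179698773-179698801, plus strand): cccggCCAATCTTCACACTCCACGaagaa
PDIA6 (ERSE, chr2:10812848-10812876, minus strand): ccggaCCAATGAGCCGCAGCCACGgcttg
ERO1B (ERSE, chr1:236282178-236282206, minus strand): gcccgCGTGGTCCCGCCTCATTGGccgcc
XBP1 (ERSE, chr22:28800598-28800626, minus strand): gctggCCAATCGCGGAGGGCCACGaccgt
HSP90B1 and HYOU1 each held 2 elements in the window. A match describes these letters and shows no binding, and the absence of a match says only that the letters are not in this window.

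LPS plus nigericin was followed by higher RNA of the chaperones HSPA5 and HSP90B1 and of the sensor genes ERN1 and ATF6, while SDF2L1, MANF, CRELD2 and XBP1 were lower. The calls of HSPA5, HSP90B1, ERN1 and SDF2L1 held in all 16 other settings and library omissions, leaving aside a test against a 2-fold change. Those of ATF6, MANF, CRELD2 and XBP1 did not hold in all of them. All 33 genes passed the filter on low counts, and 25 of them (75.8%) passed an adjusted p of 0.05, 18 higher and 7 lower, where 55.3% of all 19170 tested genes passed, 28.9% higher and 26.4% lower. The test, unless another is named, is edgeR's quasi-likelihood test with Benjamini-Hochberg adjustment over all genes tested in that fit, 19170 here. The median log2 fold change was 0.72 over the 33 genes and 0.00158 over all tested genes. Of the 18 rises, 10 were at least 2-fold, and of the 7 falls, 2, SDF2L1 and DERL3. Levels are CPM, the gene's counts scaled to library size with TMM factors. Values of the LPS plus nigericin libraries lay wholly above those of the vehicle libraries for 22 genes and wholly below for 8, against 35.0% and 32.0% of all tested genes. The 33 genes took 0.989% ± 0.0231 of all counts after LPS plus nigericin and 0.787% ± 0.0548 in vehicle (SD, n = 3 each).

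The calls ran with the base composition and the length of the transcripts, a trend shared by the protein-coding genes as a whole. Across the 33 genes, log2 fold change had a Spearman correlation of -0.64 with the GC content of the representative transcript, and across 13976 protein-coding genes one of -0.54. With transcript length the correlation was 0.61 across the 33 genes and 0.34 across the protein-coding genes. Of 19 members with a GC content below the protein-coding median of 49.8%, 16 rose and the other 3 did not pass, and of the 14 above it 2 rose, ERN1 and VCP, and 7 fell. Among all protein-coding genes 51.6% rose and 8.70% fell below that median, and 14.5% rose and 47.8% fell above it. A fit with an offset per library for GC content and transcript length takes this trend out, together with any effect of the treatment that follows it. With these offsets 13 of the 33 genes were higher (39.4%) and 4 lower (12.1%), where 50.4% of 18620 genes tested that way passed, 23.1% higher and 27.3% lower, and the median was 0.21. The same call was made in both fits for 12 genes, and ERO1A was called in opposite directions. Whether the trend came from the treatment or from library preparation was not tested.

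**Figure D1:**
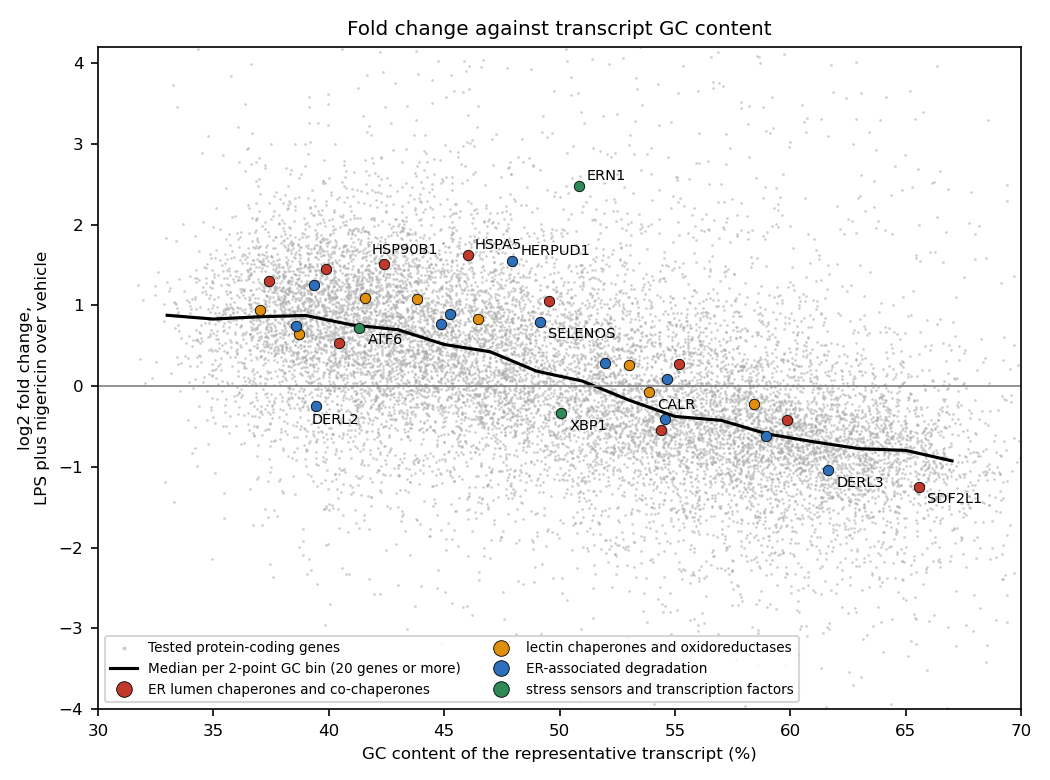
Log2 fold change (LPS plus nigericin over vehicle, y axis) against GC content of the representative transcript (x axis, percent) for the 33 genes, coloured by role, over 13976 tested protein-coding genes in grey, whose median per 2-point GC bin of at least 20 genes is the black line. ERN1, at 2.47, HSPA5, at 1.62, and HERPUD1, at 1.55, lie well above the median line, while SDF2L1, at -1.24, is the most GC-rich of the 33 at 65.5% and has the largest fall.

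HSPA5 and HSP90B1, the HSP70 and HSP90 chaperones of the ER lumen, rose together with several J-domain partners of BiP, while SDF2L1, MANF and CRELD2 fell. Of the 10 ER lumen chaperones and co-chaperones, 5 rose, 3 fell and 2 did not pass. HSPA5 had 889.9, 823 and 795 CPM in the LPS plus nigericin libraries, against 274, 237 and 303 CPM in the vehicle libraries. The lowest treated library was 2.62 times the highest vehicle library, and the rise was 3.08-fold (log2 fold change 1.62, SE 0.128, edgeR adjusted p = 8.27e-05). The gene, ENSG00000044574 on the minus strand at chr9:125234853-125241330 (GRCh38, GENCODE 29), shared no exon sequence of 50 bases or more with another gene. With GC and length offsets HSPA5 was still higher, at 1.07 (edgeR adjusted p = 9.16e-06).

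HSP90B1, which encodes GRP94, the ER member of the HSP90 family, had 1015, 938 and 980.2 CPM after LPS plus nigericin and 347, 283 and 399.7 CPM in vehicle. The groups did not overlap (log2 fold change 1.51, SE 0.145, edgeR adjusted p = 1.70e-04). Its value with offsets was 0.89. DNAJC3, a J-domain co-chaperone of BiP also known as P58IPK, had 72.8, 66.2 and 67.7 CPM after LPS plus nigericin, against 26.7, 17.9 and 31.2 CPM in vehicle. Its rise was 2.72-fold (log2 fold change 1.45, SE 0.200, edgeR adjusted p = 7.54e-04). With offsets its log2 value was 0.55. DNAJB11, a J-domain protein that hands unfolded clients to BiP, rose by 1.06 on the log2 scale (edgeR adjusted p = 7.56e-04), and its value with offsets was 0.90. DNAJC10, a J-domain disulfide reductase also called ERdj5, rose by 1.30. Its representative transcript is AU-rich, with a GC content of 37.4%, and long, at 20129 bases. With offsets for both, its value of 0.06 did not pass (edgeR adjusted p = 0.539). DNAJB9, the co-chaperone ERdj4 that holds BiP on IRE1, had 5.44, 5.13 and 5.96 CPM after LPS plus nigericin and 4.40, 1.91 and 5.09 CPM in vehicle. Vehicle library 2 was far below the other vehicle libraries there, and DNAJB9 did not pass (log2 fold change 0.53, SE 0.336, edgeR adjusted p = 0.209). Its exons overlap those of THAP5 and PNPLA8 on the other strand, and the sources used here do not say whether counting used strand. HYOU1, an HSP110-type exchange factor for BiP, was at 525 ± 19.9 CPM after LPS plus nigericin and 435 ± 29.2 CPM in vehicle (SD, n = 3 each) and just missed the threshold (log2 fold change 0.27, SE 0.105, edgeR adjusted p = 0.0578). It passed with offsets, at 0.31.

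SDF2L1, a cofactor of ERdj3 and BiP, had 13.7, 18.7 and 14.7 CPM after LPS plus nigericin, against 39.5, 41.6 and 30.5 CPM in vehicle. Every treated library was below every vehicle library (log2 fold change -1.24, SE 0.179, edgeR adjusted p = 9.11e-04). The transcript is short, at 865 bases, and GC-rich, and with offsets the fall was smaller, at -0.49 (edgeR adjusted p = 0.00479). MANF, a secreted ER stress protein that binds BiP, had 86.9, 98.9 and 88.1 CPM after LPS plus nigericin, against 131, 153 and 115 CPM in vehicle. It fell by 0.55 on the log2 scale (edgeR adjusted p = 0.00906), and the value with offsets, -0.15, did not pass. CRELD2, an ER protein related to protein disulfide isomerases, had 52.8, 67.0 and 58.4 CPM after LPS plus nigericin, against 84.8, 81.5 and 72.3 CPM in vehicle. Its fall (log2 fold change -0.42, SE 0.129, edgeR adjusted p = 0.0244) was lost without LPS plus nigericin library 1 or 3 or vehicle library 1, with adjusted p up to 0.103, and turned to 0.21 with offsets, where it did not pass.

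**Figure D2:**
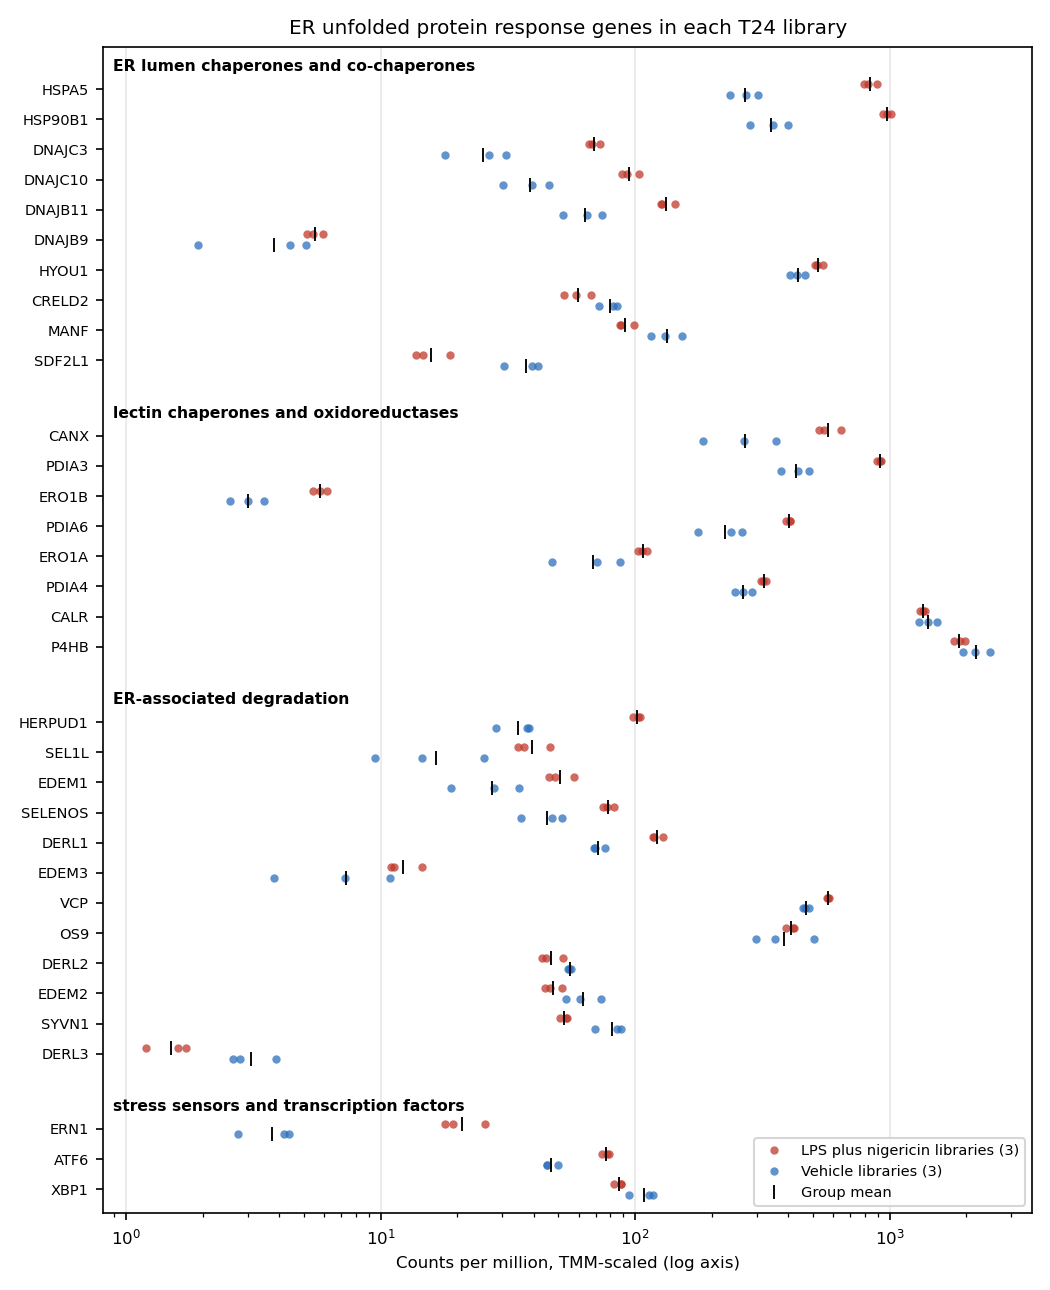
TMM-scaled CPM (log axis) of each of the 33 genes in the 3 LPS plus nigericin libraries (red) and the 3 vehicle libraries (blue), with group means as black ticks, grouped by role and ordered by fold change. The LPS plus nigericin libraries of HSPA5, HSP90B1, HERPUD1 and ERN1 lie well to the right of the vehicle libraries, those of SDF2L1 to the left, and those of CALR and P4HB overlap.

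Among the lectin chaperones and disulfide enzymes the membrane lectin calnexin rose and the soluble lectin calreticulin did not pass. Of these 8 genes, 5 rose and the other 3, PDIA4, CALR and P4HB, did not pass. CANX, which encodes calnexin and retains glycoproteins until they fold, had 642, 528 and 553 CPM after LPS plus nigericin and 268, 185 and 358 CPM in vehicle. The highest vehicle library was 1.94 times the lowest, and all lay below the treated ones (log2 fold change 1.09, SE 0.226, edgeR adjusted p = 0.0046; 0.34 with offsets, edgeR adjusted p = 0.0141). CALR, which encodes calreticulin, had 1318, 1378 and 1352 CPM after LPS plus nigericin, against 1417, 1531 and 1308 CPM in vehicle. The treated values fell inside the vehicle range (log2 fold change -0.07, SE 0.109, edgeR adjusted p = 0.6). With offsets CALR did not pass either, at 0.16.

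PDIA3, the ERp57 partner of calnexin and calreticulin, had 921, 923 and 896 CPM after LPS plus nigericin and 435, 374 and 483 CPM in vehicle. It rose 2.12-fold (log2 fold change 1.08, SE 0.123, edgeR adjusted p = 3.38e-04). With offsets it was at 0.43. Its exons overlap those of ELL3 and the pseudogene CATSPER2P1 on the other strand. PDIA6, an oxidoreductase that acts with BiP, rose by 0.83 on the log2 scale (edgeR adjusted p = 0.00275) and by 0.47 with offsets. PDIA4, or ERp72, was at 319.8 ± 6.96 CPM after LPS plus nigericin and 266 ± 20.8 CPM in vehicle and did not pass (edgeR adjusted p = 0.0626), though it did with offsets, at 0.31. P4HB, the founding protein disulfide isomerase, was at 1881 ± 96.1 CPM after LPS plus nigericin, against 2191 ± 272 CPM in vehicle, with a log2 fold change of -0.22 that did not pass (edgeR adjusted p = 0.173) and a value of 0.24 with offsets that did. The GC content of the P4HB transcript is 58.4%.

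ERO1B and ERO1A encode the oxidases that recharge protein disulfide isomerase. ERO1B had 6.17, 5.80 and 5.43 CPM after LPS plus nigericin and 3.00, 2.57 and 3.49 CPM in vehicle. It rose by 0.94 on the log2 scale (edgeR adjusted p = 0.00413) and stood at 0.01 with offsets, where it did not pass. ERO1A, the more abundant oxidase and also a hypoxia target, was at 107 ± 4.26 CPM after LPS plus nigericin, against 68.4 ± 19.9 CPM in vehicle. Its call as higher (log2 fold change 0.65, SE 0.204, edgeR adjusted p = 0.0273) was lost without any one of the LPS plus nigericin libraries or without vehicle library 1, and ERO1A was called lower with offsets, at -0.26 (edgeR adjusted p = 0.028).

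Within ERAD, HERPUD1 and SELENOS rose in both fits, and the E3 ligase SYVN1 fell while its partner SEL1L rose. Among the 12 ERAD genes, 6 were called higher, 3 were called lower and EDEM3, OS9 and DERL2 missed the threshold. In the fit with offsets, 2 were higher, HERPUD1 and SELENOS, and 1 lower, DERL2. HERPUD1, an adaptor that brings the HRD1 ligase complex together and is a standard ER stress target, had 105, 102 and 98.1 CPM after LPS plus nigericin and 37.5, 28.5 and 38.2 CPM in vehicle. The lowest treated library was 2.57 times the highest vehicle library (log2 fold change 1.55, SE 0.140, edgeR adjusted p = 1.39e-04; 1.21 with offsets). The gene lies on the plus strand at chr16:56932048-56944863 and shares no exon sequence of 50 bases or more with another gene. The GENCODE 29 bounds of HERPUD1 and SDF2L1 begin inside the stretches printed above, which end at the RefSeq start. SELENOS, a selenoprotein that links the derlins to the ATPase p97, was at 78.1 ± 4.10 CPM after LPS plus nigericin, against 44.9 ± 8.27 CPM in vehicle, a rise of 0.80 on the log2 scale (edgeR adjusted p = 0.00324) and of 0.82 with offsets.

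SEL1L, the adaptor that stabilises the ligase HRD1, had 46.4, 34.7 and 36.7 CPM after LPS plus nigericin and 14.6, 9.49 and 25.5 CPM in vehicle. Vehicle library 3 was 2.68 times vehicle library 2, and all 3 lay below the treated libraries. The rise (log2 fold change 1.25, SE 0.329, edgeR adjusted p = 0.0129) was lost without LPS plus nigericin library 1 or vehicle library 1 (edgeR adjusted p up to 0.0541) and with offsets (0.30, edgeR adjusted p = 0.171). SYVN1, which encodes HRD1 itself, had 54.2, 50.6 and 53.3 CPM after LPS plus nigericin, against 85.2, 69.5 and 87.7 CPM in vehicle. It fell (log2 fold change -0.62, SE 0.124, edgeR adjusted p = 0.00403), with no overlap between groups, and was at -0.20 with offsets, where it did not pass. Exons of SYVN1 overlap those of FAU on the same strand and of MRPL49 on the other.

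TPM, an abundance per transcript length computed here from the counts and the length of one representative transcript per gene, allows levels of different genes to be set side by side. The ratio of HERPUD1 to SYVN1 TPM was 2.06, 2.16 and 1.97 after LPS plus nigericin, against 0.469, 0.438 and 0.465 in vehicle. The ratio of SEL1L to SYVN1 was 0.340, 0.272 and 0.273 after LPS plus nigericin and 0.0679, 0.0542 and 0.115 in vehicle. Neither ratio overlapped between groups, and both compare a GC-poorer transcript with a GC-richer one.

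The mannosidase-like proteins of the EDEM family mark glycoproteins for disposal. EDEM1 had 57.7, 45.9 and 48.4 CPM after LPS plus nigericin and 28.0, 18.8 and 35.1 CPM in vehicle. It rose by 0.89 on the log2 scale (edgeR adjusted p = 0.0104) and was at 0.22 with offsets, not passing. EDEM2 had 46.2, 51.7 and 44.4 CPM after LPS plus nigericin, against 60.9, 73.6 and 53.4 CPM in vehicle. Its fall (log2 fold change -0.40, SE 0.146, edgeR adjusted p = 0.0458) was lost when any single library other than vehicle library 3 was left out, with adjusted p up to 0.147, and with offsets (-0.12, edgeR adjusted p = 0.346). EDEM3 was at 12.3 ± 1.97 CPM after LPS plus nigericin, against 7.33 ± 3.55 CPM in vehicle and did not pass (edgeR adjusted p = 0.0992).

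The derlins are membrane proteins of the retrotranslocation channel, and their calls differed. DERL1 was at 121 ± 6.06 CPM after LPS plus nigericin and 71.5 ± 4.07 CPM in vehicle and rose (log2 fold change 0.76, SE 0.104, edgeR adjusted p = 7.11e-04; 0.16 with offsets, not passing). DERL2 was at 46.7 ± 4.88 CPM after LPS plus nigericin, against 55.3 ± 0.703 CPM in vehicle and did not pass (edgeR adjusted p = 0.115), but was called lower with offsets, at -1.12. DERL3, the least abundant derlin, had 1.19, 1.59 and 1.71 CPM after LPS plus nigericin, against 2.80, 3.87 and 2.62 CPM in vehicle. It fell (log2 fold change -1.04, SE 0.254, edgeR adjusted p = 0.00918). Its value with offsets, -0.35, did not pass. OS9, a lectin that reads trimmed glycans, overlapped between groups at 409 ± 16.5 CPM after LPS plus nigericin and 385 ± 106 CPM in vehicle (edgeR adjusted p = 0.718). VCP, the p97 ATPase that extracts ERAD substrates, was at 572 ± 5.54 CPM after LPS plus nigericin, against 469 ± 12.5 CPM in vehicle, a difference of 0.29 (edgeR adjusted p = 0.0342) that no longer passed without any one of 5 of the 6 libraries, vehicle library 2 being the exception, and was at 0.10 with offsets.

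**Figure D3:**
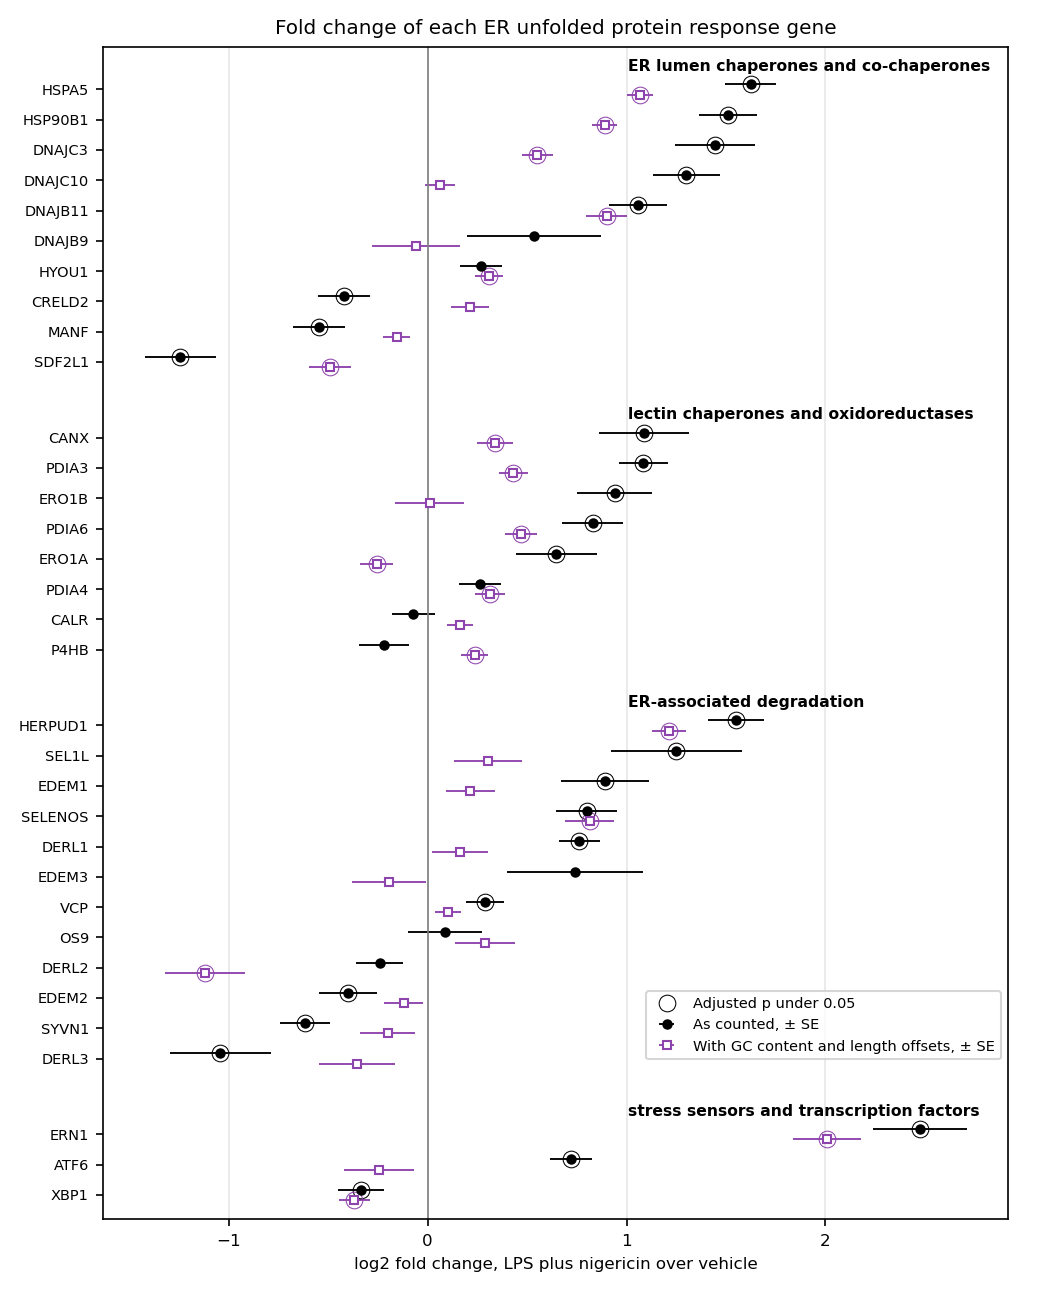
Log2 fold change (LPS plus nigericin over vehicle) with its SE for each of the 33 genes as counted (black) and with GC content and length offsets (purple squares), where rings mark an edgeR adjusted p under 0.05. ERN1, HERPUD1 and HSPA5 stay to the right of 1 in both fits, while ERO1A and ATF6 change side.

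The sensor gene ERN1 showed the largest rise of the 33, and the sensor gene ATF6 was also higher as counted. XBP1, a transcription factor gene whose mRNA is the substrate of IRE1, was slightly lower. ERN1, which encodes IRE1α, had 25.7, 19.2 and 17.9 CPM after LPS plus nigericin and 4.38, 2.74 and 4.16 CPM in vehicle. The lowest treated library was 4.09 times the highest vehicle library, and the rise was 5.56-fold (log2 fold change 2.47, SE 0.236, edgeR adjusted p = 1.66e-04). It stayed at 2.01 with offsets (edgeR adjusted p = 3.88e-05). The gene is on the minus strand at chr17:64039142-64130819 and shares no such exon sequence either. XBP1 had 82.4, 87.8 and 88.2 CPM after LPS plus nigericin, against 118, 95.0 and 113 CPM in vehicle. All treated libraries lay below the vehicle libraries, by a narrow margin over vehicle library 2 (log2 fold change -0.33, SE 0.117, edgeR adjusted p = 0.0401). The XBP1 call was lost without any one of 5 of the 6 libraries, vehicle library 2 being the exception (edgeR adjusted p up to 0.166), while with offsets the value was -0.37 (edgeR adjusted p = 0.00486). ATF6 had 77.4, 74.1 and 79.1 CPM after LPS plus nigericin and 45.1, 49.7 and 45.0 CPM in vehicle. The replicates were tight and the rise passed (log2 fold change 0.72, SE 0.106, edgeR adjusted p = 9.79e-04), but the transcript is long and GC-poor, and with offsets ATF6 was at -0.24 and did not pass (edgeR adjusted p = 0.276).

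The spread among replicates was wider in vehicle. The coefficient of variation over 3 libraries was larger in vehicle than after LPS plus nigericin for 30 of the 33 genes, with medians of 5.25% after LPS plus nigericin and 15.9% in vehicle. The same share over all tested genes was not computed. Across the tested genes, vehicle pairs also differed more, by 59.0 to 203 in chi-square per degree of freedom. LPS plus nigericin pairs differed by 23.8 to 54.3. Vehicle library 2 was the lowest vehicle library for 15 of the 18 genes that rose and the highest for 4 of the 7 that fell. Leaving it out, 19 genes were higher and 6 lower and the median log2 fold change was 0.44 in place of 0.72. Of the 25 calls, 11 were kept in each of the 16 other settings and library omissions, not counting a test against a 2-fold change: the rises of HSPA5, HSP90B1, DNAJB11, DNAJC3, CANX, PDIA3, PDIA6, HERPUD1, SELENOS and ERN1 and the fall of SDF2L1. Against a 2-fold change with edgeR's glmTreat, 5 genes passed, HSPA5, HSP90B1, DNAJC3, HERPUD1 and ERN1, all higher.

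On the TPM scale, P4HB and CALR were the most abundant in both groups, and the order below them changed. P4HB stood at 1387 ± 17.0 TPM after LPS plus nigericin and 1563 ± 11.0 TPM in vehicle, and CALR at 1362 ± 23.9 TPM after LPS plus nigericin and 1389 ± 64.5 TPM in vehicle (SD, n = 3 each). The treated ranges of these 2 overlapped. HSP90B1 came next after LPS plus nigericin at 658 ± 51.6 TPM, against 228 ± 65.5 TPM in vehicle. HSPA5 ranked 5 after LPS plus nigericin at 411 ± 37.3 TPM and 11 in vehicle at 131 ± 31.7 TPM. The ratio of HSPA5 to CALR TPM was 0.329, 0.291 and 0.286 after LPS plus nigericin, against 0.0941, 0.0752 and 0.113 in vehicle, with no overlap. HSPA5 has the GC-poorer transcript (46.0% against 53.9%), and the TPM values, ratios and ranks here carry no offset for GC content. MANF ranked 12 after LPS plus nigericin and 6 in vehicle. HERPUD1 ranked 18 after LPS plus nigericin at 66.4 ± 3.92 TPM and 23 in vehicle at 22.4 ± 5.87 TPM. ERN1 was the lowest of all in vehicle, at 0.910 ± 0.296 TPM, and ranked 29 after LPS plus nigericin at 5.13 ± 1.20 TPM. In 16 of the 32 steps down the treated order, the libraries of neighbouring genes overlapped. DNAJC10 carries a representative transcript of 20129 bases, so its TPM is low if cells use shorter forms.

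The 11 genes with an exact ERSE or ERSE-II moved in both directions. Of these, 6 rose, HSPA5, HERPUD1, HSP90B1, CANX, ERO1B and PDIA6, 3 fell, XBP1, CRELD2 and SDF2L1, and HYOU1 and CALR did not pass, with a median log2 fold change of 0.83. Among the 19 genes with a window and neither element, 10 rose and 3 fell, with a median of 0.65. With offsets, the 11 held 6 higher and 2 lower with a median of 0.31, and the 19 held 6 higher and 2 lower with a median of 0.10. ERN1, with the largest rise, was among the 19. The shorter UPRE, TGACGTGG, was in the windows of HYOU1, DNAJC10 and VCP and in 0.730% of all windows. The HSPA5 element sits 66 to 48 bases before the start in the stretch printed above, and the SDF2L1 element 188 to 178 bases before.

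**Figure D4:**
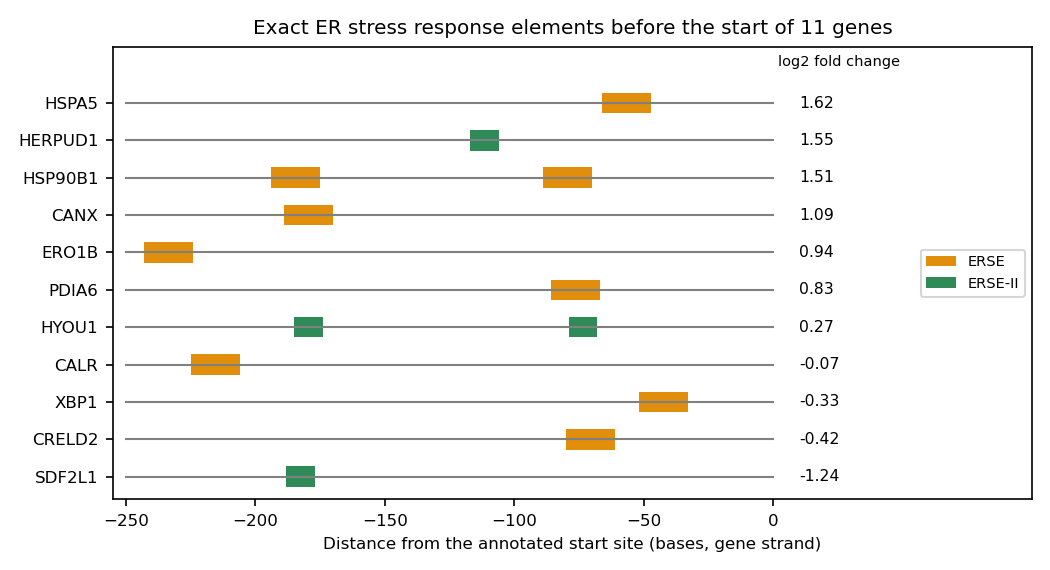
Position of exact ERSE (orange) and ERSE-II (green) matches, in bases from the annotated start site on the gene's strand, for the 11 genes that hold one, ordered by log2 fold change (LPS plus nigericin over vehicle, right). Where a gene has several annotated starts, the distance is from the one farthest downstream of the element. Genes with an element run from 1.62 for HSPA5 to -1.24 for SDF2L1.

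The wider ER machinery was described with 9 lists holding 142 other genes, 139 of them tested, of which 66 rose, 28 fell and 45 did not pass, where 28.9% of all tested genes rose and 26.4% fell. With offsets 51 of the 139 were higher, 34 lower and 54 not passing, and the split differed by list. The PERK branch split. The kinase, ATF4 and the phosphatase subunits that reverse eIF2α phosphorylation rose, as did ATF3 and SESN2 (log2 fold change 1.13, 1.56 with offsets). EIF2S1, which encodes eIF2α, rose by 0.28 on the log2 scale and was called lower with offsets, at -0.64 (edgeR adjusted p = 0.0155). DDIT3, CHAC1 and TRIB3, classical targets of the branch in prolonged stress, fell, as did CEBPB, CEBPG and DDIT4. With offsets CEBPG was lower, at -1.59, and CEBPB, at 0.29, and DDIT4, at -0.34, did not pass. In this list of 18, 7 rose, 6 fell and 5 did not pass (ASNS, ATF5, VLDLR, CTH and NUPR1), and with offsets 7 were higher and 7 lower. EIF2AK3, which encodes PERK, had 22.7, 15.2 and 20.4 CPM after LPS plus nigericin and 5.52, 2.20 and 6.80 CPM in vehicle (log2 fold change 2.00, SE 0.383, edgeR adjusted p = 0.00322; 1.36 with offsets). ATF4 had 1174, 1362 and 1206 CPM after LPS plus nigericin, against 539, 601 and 485 CPM in vehicle, with no overlap (log2 fold change 1.20, SE 0.126, edgeR adjusted p = 2.41e-04; 1.60 with offsets). PPP1R15A, or GADD34, rose 5.01-fold to 983 ± 93.5 CPM after LPS plus nigericin, against 196 ± 20.7 CPM in vehicle, and ATF3, a stress-induced repressor, rose 12.4-fold to 91.1 ± 6.90 CPM after LPS plus nigericin, against 7.34 ± 2.69 CPM in vehicle. DDIT3, which encodes CHOP, had 4.58, 7.49 and 6.08 CPM after LPS plus nigericin and 13.9, 16.9 and 10.9 CPM in vehicle. Its fall passed in both fits (log2 fold change -1.20, SE 0.237, edgeR adjusted p = 0.00375; edgeR adjusted p = 0.00182 with offsets). CHAC1, a glutathione-degrading enzyme downstream of ATF4 and CHOP, fell to 8.27 ± 0.417 CPM after LPS plus nigericin, against 39.6 ± 7.28 CPM in vehicle (log2 fold change -2.26, SE 0.169, edgeR adjusted p = 7.17e-05; -1.56 with offsets). CHAC1 and DDIT3 thus went the other way from HSPA5 and HERPUD1 in the same libraries, while PPP1R15A, ATF3 and SESN2 of the same list rose.

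Regulators of the ATF6 and IRE1 branches were mostly higher, with 8 of 13 tested genes up, CREB3 and CREB3L4 down and ATF6B, NFYC and RTCB, the ligase that joins spliced XBP1, not passing. With offsets 9 of the 13 were higher and 2 lower. NFYA, a subunit of the NF-Y factor that binds the CCAAT end of ERSE, rose to 36.2 ± 3.57 CPM after LPS plus nigericin, against 8.37 ± 1.55 CPM in vehicle (log2 fold change 2.11, SE 0.176, edgeR adjusted p = 1.03e-04; 1.52 with offsets). MBTPS1 and MBTPS2, the proteases that cut ATF6 in the Golgi, rose by 0.70 and 1.48 on the log2 scale, with offset values of 0.45 and 0.65. ERN2, which encodes the epithelial IRE1β and is named here after its values were seen, had 18, 22 and 19 counts after LPS plus nigericin and 0 in every vehicle library (edgeR adjusted p = 0.00356). Of 11 genes of ER calcium handling, 7 rose, ORAI1 fell and ATP2A3, ITPR3 and SELENOK did not pass, against 6 higher and 2 lower with offsets. ATP2A2, the SERCA2 pump that loads the ER with calcium, had 457, 365 and 379 CPM after LPS plus nigericin and 126, 78.9 and 161 CPM in vehicle (log2 fold change 1.72, SE 0.246, edgeR adjusted p = 8.74e-04; 1.22 with offsets).

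Of 24 genes for translocation into the ER, 12 rose, 3 fell (SSR2, SSR4 and SRP68) and 9 did not pass. With offsets 8 were higher and 6 lower, and SSR4, at 0.20, did not pass. SEC63, a J-domain partner of BiP at the translocon, rose by 1.83 (0.90 with offsets), and the channel gene SEC61A1, at 582 ± 19.4 CPM after LPS plus nigericin and 699.8 ± 92.1 CPM in vehicle, did not pass (edgeR adjusted p = 0.104). Of 17 genes of N-glycosylation and the glucosidase cycle, 9 rose, 4 fell (MOGS, OST4, MAN1B1 and PRKCSH) and 4 did not pass. With offsets 9 were higher and 3 lower, and MAN1B1, at -0.11, and PRKCSH, at 0.0828, did not pass. MOGS, the first glucosidase of the cycle, fell to 34.6 ± 3.88 CPM after LPS plus nigericin, against 126 ± 19.3 CPM in vehicle (log2 fold change -1.86, SE 0.152, edgeR adjusted p = 9.51e-05; -1.30 with offsets). UGGT2, a folding sensor that reglucosylates glycoproteins, rose by 1.72, or 0.78 with offsets. Of 25 other ER folding enzymes tested, 10 rose, 4 fell (SIL1, FKBP2, FKBP11 and PPIB) and 11 did not pass. With offsets 7 were higher and 2 lower, and FKBP2, at -0.12, FKBP11, at -0.18, and PPIB, at -0.08, did not pass. CALU, a calcium-binding protein of the secretory pathway, rose to 462 ± 31.1 CPM after LPS plus nigericin, against 156 ± 19.8 CPM in vehicle (1.57 on the log2 scale, 1.01 with offsets), and SIL1, a nucleotide exchange factor of BiP, fell by 0.80 and was lower with offsets too, at -0.28.

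Of 20 other ERAD genes, 10 rose, 4 fell (TMUB1, UBE2J2, RNF5 and NPLOC4) and 6 did not pass. With offsets 5 were higher (25%) and 7 lower (35%), where 23.1% of all genes tested that way were higher and 27.3% lower. MARCHF6, an ER ubiquitin ligase, rose by 1.21, with a value of 0.20 with offsets that did not pass. Of the 3 KDEL receptors, which return escaped ER proteins from the Golgi, KDELR2 rose by 0.34 (edgeR adjusted p = 0.0189; -0.22 with offsets, not passing), and KDELR1 and KDELR3 did not pass, at -0.17 and -0.02. With offsets KDELR3 was called lower, at -0.33. Of 8 ER-phagy receptors, which deliver ER fragments to lysosomes, CCPG1 and RTN3 rose, RETREG2, RETREG3, TEX264 and CALCOCO1 fell and ATL3 and RETREG1 did not pass. With offsets 4 of the 8 were called lower and the other 4 did not pass, and TEX264, CCPG1 and RTN3, none of them passing, were at -0.06, -0.04 and -0.14.

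**Figure D5:**
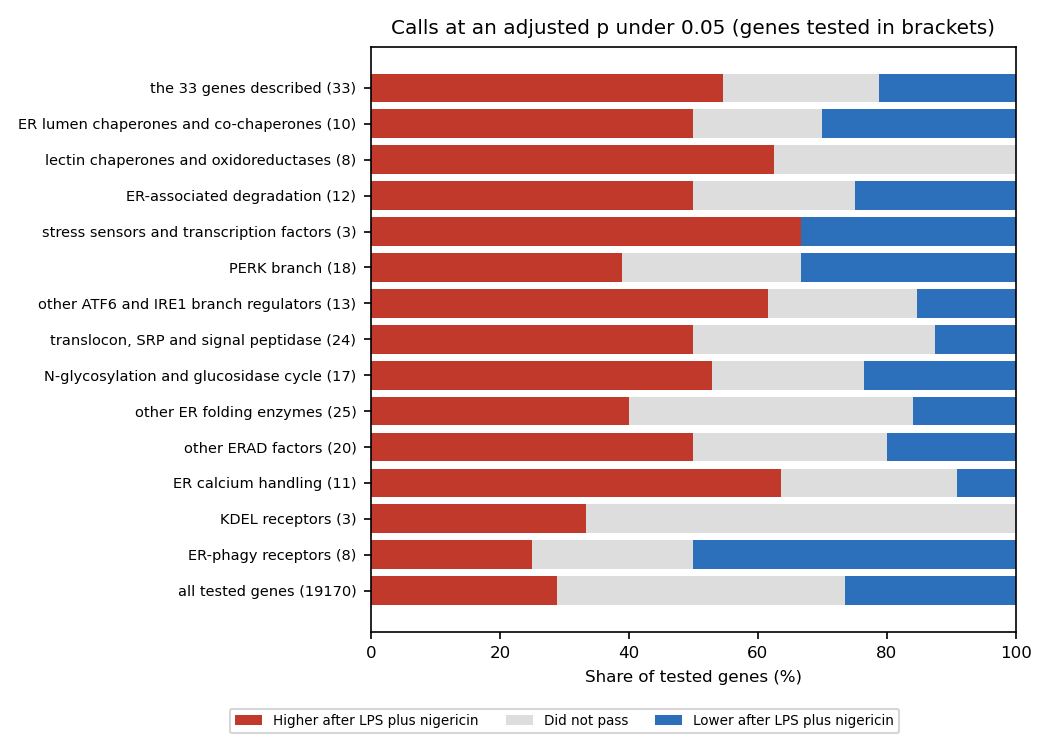
Share of tested genes (x axis, percent) called higher (red), not passing (grey) or lower (blue) after LPS plus nigericin for the 33 genes, their 4 roles, the 9 lists of other ER genes and all 19170 tested genes, with the number tested in brackets. The PERK branch holds 7 higher and 6 lower of 18, and ER calcium handling 7 higher and 1 lower of 11.

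Library totals were 66180407 to 86594539 counts after LPS plus nigericin and 81917343 to 89152224 in vehicle. The share of mitochondrially encoded genes was 12.0% to 12.4% after LPS plus nigericin and 6.49% to 7.33% in vehicle. Leaving mitochondrial and ribosomal RNA genes out changed 0 of the 33 results by edgeR. Of the epithelial markers, KRT7, KRT8, KRT18 and KRT19 were abundant (KRT8 at 1387 ± 152 CPM after LPS plus nigericin and 2709.7 ± 495 CPM in vehicle), while the urothelial and adhesion markers CDH1, KRT5, UPK1B and UPK3A were at or near 0 and UPK2 and EPCAM were low. All 4 keratins fell, though with offsets KRT7 was at 0.01 and did not pass (edgeR adjusted p = 0.903). GATA3, of the same marker list, was at 11.2 ± 0.306 CPM after LPS plus nigericin and 18.3 ± 3.09 CPM in vehicle. It was called lower in both fits, at -0.71 and, with offsets, -0.48. The leukocyte markers PTPRC and ITGAM were at or near 0, and CD68 was at 2.48 ± 0.505 CPM after LPS plus nigericin and 7.26 ± 3.96 CPM in vehicle. The part of these in the results was not tested. In bulk RNA, fewer cells expressing a gene and less RNA per cell cannot be told apart. For 18 of the 33 genes, exons overlap those of a neighbouring gene by 50 bases or more, so their counts may include its reads.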

How the data were processed

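RNA from T24 cells was sequenced in 3 LPS plus nigericin and 3 vehicle libraries. The authors deposited raw counts per Ensembl gene, 1 column per library per the file headers, with hg38 as the build per the submitters' processing notes. The aligner, counter, annotation, strand setting and counting unit (read or fragment) are not given in the sources used, and the labels name more than 1 company for extraction. Columns were matched by library name, and 0 columns belonged to no sample.

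Of 37871 identifiers, 37840 matched a symbol. filterByExpr left 19170 genes, and TMM factors and a robust quasi-likelihood F test with the group as the only term (edgeR 4.0.16, R 4.3.3) gave log2 fold changes, with SE the absolute value divided by the square root of F. The common biological coefficient of variation was 0.268. Representative transcripts (the best APPRIS class, then the longest) from GENCODE 29 gave length and GC content, and loess offsets (span 0.3, fitted per library on protein-coding genes) used both. TPM, ratios and motifs are descriptions. Promoters came from RefSeq, GRCh38.p14. Totals of 66180407 counts or more make counting error small, so replicates set the precision, and the smallest two-sided p of an exact permutation test is 0.1. Replicate pairs differed by 23.8 to 203 in chi-square per degree of freedom, above sampling noise.

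The 33 genes, the lists and the tests were chosen with earlier results of these data known. Values per library are given for the 3 largest rises and falls in each role and for 9 genes fixed by name, and context genes by size of change at a mean of 5 CPM or more, by counts of 5 or fewer, or by name. TRIB3, SESN2, ERN2, EIF2S1, CEBPB, CEBPG and DDIT4 were named after their values were seen. The alternatives tried were RLE factors, library totals, DESeq2 1.42.0, limma-voom (limma 3.58.1), 2 count filters, the replicate number as a block, the offsets with and without that block, a table without mitochondrial and rRNA genes, glmTreat against a 2-fold change, and leaving out each library. Scripts were tested on simulated counts. Figures used matplotlib 3.10.9 in Python 3.11.15.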

Additional observations from a re-analysis of the deposited data

How the results depend on the processing

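The 33 genes gave 18 higher and 7 lower calls, and RLE factors, library totals, DESeq2, limma-voom, both count filters and the table without mitochondrial and rRNA genes gave 16 to 20 higher and 5 to 8 lower. The replicate number as a block gave 18 and 6. Deviations of same-numbered libraries from their group means correlated at -0.02, 0.10 and -0.02, and those of differently numbered libraries at -0.10 to 0.12. With so few libraries per group, these values cannot decide whether the numbers pair the samples, and the labels do not say. Library totals moved the median log2 fold change to 0.65. GC content and length offsets gave 13 higher and 4 lower with a median of 0.21, and with the replicate block 13 and 4 with a median of 0.22. glmTreat against a 2-fold change gave 5 higher and 0 lower of the 33 (1 lower at an unadjusted p under 0.05, SDF2L1), and 1512 higher and 1172 lower of all genes, where the test against no change gave 5540 and 5070. Leaving out each library gave 15 to 19 higher and 4 to 6 lower, a median of 0.44 to 0.79, and 4341 to 6061 higher and 4000 to 5286 lower of all genes. The lower calls numbered 4 without LPS plus nigericin library 1 or 3 or vehicle library 1, and the median was 0.44 without vehicle library 2. With offsets the sign changed for 7 of the 33 genes and 31 of the 139 context genes, some of them, such as DNAJB9, CALR and EDEM3, without a call in either fit. EIF2S1 and CEBPB changed sign too, to -0.64 and 0.29 with offsets. Where either fit made a call, the values of the other genes named here were CRELD2 0.21, P4HB 0.24, ERO1A -0.26, ATF6 -0.24, ATF5 0.36, ATF6B 0.32, SSR4 0.20, PRKCSH 0.0828, KDELR2 -0.22, RTN3 -0.14, CCPG1 -0.0372 and ATL3 -0.74, and with offsets and the replicate block CRELD2 0.22, P4HB 0.24, ERO1A -0.26, ATF6 -0.21, ATF5 0.36, ATF6B 0.32, SSR4 0.20, PRKCSH 0.0840, MLEC -0.27, KDELR2 -0.22, RTN3 -0.14, CCPG1 -0.0359 and ATL3 -0.73. DERL3, ERO1B and DNAJB9 have the fewest counts of the 33. Why these values moved was not tested.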
